A study of Homo sapiens with 2 samples.

Results

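The SWI/SNF (BAF) complex subunits described here are 10 genes: SMARCA2, SMARCA4, SMARCB1, SMARCC1, SMARCC2, SMARCD1, ARID1A, ARID1B, ARID2 and PBRM1. They were chosen by symbol, through the GRCh37 gene annotation. Their measured values were not used in the choice, although earlier results of these data were known. All 10 had a row among the 57736 genes of each expression table. The data were RNA-Seq of poly(A)+ RNA from wild-type HEK293T cells, a human embryonic kidney line with the large T antigen of SV40. The cells were grown in DMEM with serum to near confluence and received no treatment. There was 1 group with 2 replicates and thus no second condition, so that the comparisons below were made between subunits and between the libraries. Nothing in the labels says that the replicates came from separate cultures, and the spread between them may be technical.

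SWI/SNF complexes use the energy of ATP hydrolysis to slide or evict nucleosomes and thereby open chromatin at enhancers and promoters. Each complex is built around a single catalytic ATPase and a core of scaffold subunits, and comes in 3 forms. The canonical form (BAF) carries ARID1A or ARID1B, the PBAF form carries ARID2 and PBRM1, and the non-canonical form (ncBAF) carries BRD9 with BICRA or BICRAL. Several subunits are encoded by paralogs that exclude each other within a complex, and many of the genes are recurrently mutated in human cancers and in developmental disorders.

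The libraries held 10593491 and 10104118 estimated read counts of 50-nt reads. At this depth a count of 0 allows a level of up to 0.283 and 0.297 CPM (counts scaled by the library total), which correspond to 3 counts and cover counting error only. Of 12 kidney marker genes only LRP2 was detected, at 8.28 and 9.96 TPM (a unit that corrects for transcript length and sums to the same amount per library), while 6 of 9 neuronal markers were detected, with UCHL1 highest at 251 and 256 TPM. The other detected neuronal markers were far lower, from 1.14 TPM (GAP43, replicate 1) to 15.4 TPM (ENO2, replicate 1). STMN2, MAP2 and ELAVL4 were not detected. Of 11 markers of blood, liver, connective tissue, endothelium and muscle 3 were detected, and COL1A1 was the highest of them at 10.3 and 7.51 TPM. The neuronal marker NEFL and the endothelial marker PECAM1 were also listed but were not matched to an identifier, and are not in these counts.

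All 10 subunits were detected, with a TPM of 1 or more in each replicate, against 63.7% of protein-coding genes and 27.7% of all genes. Their mean levels ran from 13.3 TPM for SMARCA2 to 176 TPM for SMARCB1. The median level of the subunits was 57.6 TPM in replicate 1 and 56.2 TPM in replicate 2, and the median of the 12345 detected protein-coding genes was 21.4 and 21.0 TPM. Together the 10 genes held 0.0814% and 0.0802% of all TPM. These are values of bulk RNA, in which the number of cells with a transcript and the amount of RNA per cell cannot be told apart.

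**Figure D1:**
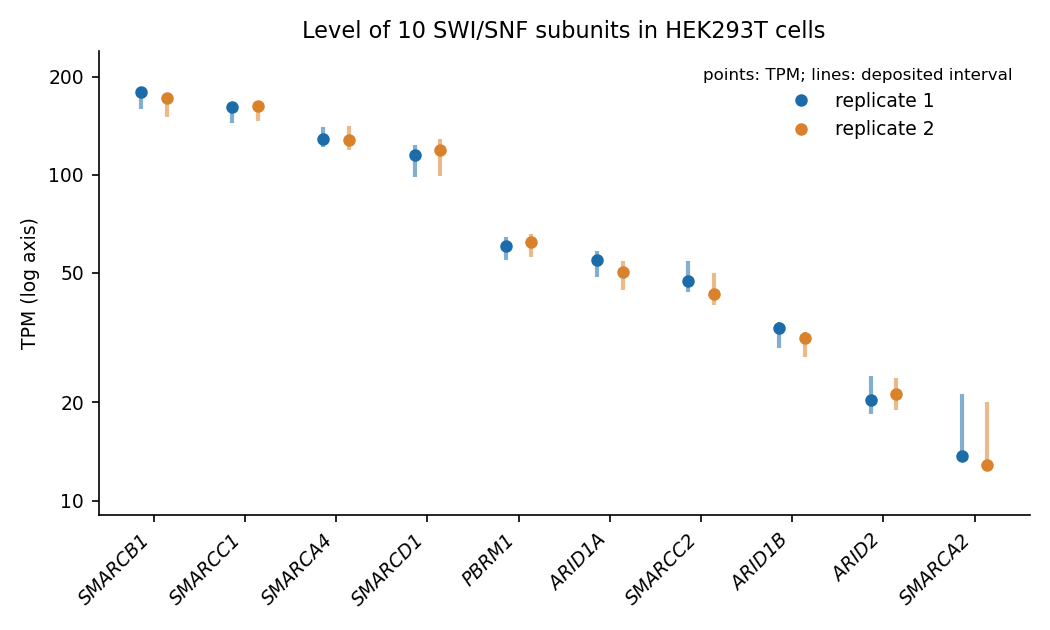
Level of each subunit (TPM, log axis) in replicate 1 (blue) and replicate 2 (orange). Points are the deposited TPM, and lines are the interval deposited for the posterior mean TPM of that library, whose level the sources do not give. The points of both replicates lie close together for every subunit, from SMARCB1 near 176 TPM to SMARCA2 near 13.3 TPM.

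The catalytic ATPase is encoded by SMARCA4 (BRG1) or SMARCA2 (BRM), which contain a helicase-like motor domain and a bromodomain. SMARCA4 (ENSG00000127616, chr19:11071608-11190102, plus strand, GRCh37) was measured at 128.3 TPM in replicate 1 and 128.1 TPM in replicate 2, or 128 ± 0.148 TPM (SD, n = 2), from 4811 and 4450 estimated counts. SMARCA2 (ENSG00000080503, chr9:1980290-2193624, plus strand) was measured at 13.7 and 12.8 TPM, or 13.3 ± 0.629 TPM, from 365 and 349 estimated counts. SMARCA4 was thus 9.35-fold above SMARCA2 in replicate 1 and 9.98-fold above it in replicate 2, and provided 90.6% ± 0.393 of the ATPase TPM. The deposited intervals of the paralogs were far apart, at 121 to 140 TPM for SMARCA4 against 13.3 to 21.3 TPM for SMARCA2 in replicate 1, and at 119 to 141 against 12.4 to 20.1 TPM in replicate 2. SMARCA4 was at the percentile 92.4 of the detected protein-coding genes, and SMARCA2 at the percentile 36.5.

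A share between paralogs can be measured only if reads tell them apart, and the closest coding stretches of SMARCA4 and SMARCA2 are therefore printed. These windows of 50 bases, the length of a read, are those with the fewest mismatches between single coding exons of the canonical transcripts. Windows and runs across exon junctions were not searched, for this pair or for those below. Capitals mark the bases at which the paralogs differ. They lie at chr19:11132413-11132462 in exon 19 of SMARCA4 and at chr9:2086841-2086890 in exon 18 of SMARCA2, both on the plus strand of GRCh37.
SMARCA4: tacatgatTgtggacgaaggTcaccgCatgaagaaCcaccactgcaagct
SMARCA2: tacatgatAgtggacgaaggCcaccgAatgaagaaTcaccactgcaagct
Even this pair held 4 mismatches (92% identity), and the longest identical run within single coding exons was 26 bases. No stretch of 50 bases was shared between the compared transcripts of the paralogs, which were 17 of the 20 listed for SMARCA4 and all 17 listed for SMARCA2. The other 3 SMARCA4 transcripts were not analysed here.

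SMARCC1 and SMARCC2 encode the paired scaffold subunits onto which the rest of the core assembles, and a complex can hold both or a pair of the same kind. SMARCC1 (ENSG00000173473, chr3:47626759-47823596, minus strand) was measured at 161 and 162 TPM, or 161 ± 0.735 TPM, from 5333 and 5195 counts. SMARCC2 (ENSG00000139613, chr12:56556143-56583351, minus strand) was measured at 47.3 and 43.0 TPM, or 45.1 ± 3.05 TPM, from 1095 and 985 counts. SMARCC1 exceeded SMARCC2 3.40-fold and 3.77-fold, so that it provided 78.2% ± 1.23 of their summed TPM. The spread between replicates of SMARCC2, 6.75% of its mean, was the widest of the 10 subunits, and it was small beside the distance to SMARCC1.

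The closest coding windows of this pair are shown for the same reason. They lie at chr3:47779535-47779584 in exon 4 of SMARCC1 and at chr12:56578830-56578879 in exon 4 of SMARCC2, both printed along the minus strand, with capitals at the mismatches.
SMARCC1: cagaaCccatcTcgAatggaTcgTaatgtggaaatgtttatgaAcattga
SMARCC2: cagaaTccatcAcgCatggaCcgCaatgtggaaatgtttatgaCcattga
The windows differed at 6 bases (88% identity), and the longest identical run within single coding exons was 23 bases. Another gene bore on SMARCC2 instead: MYL6, a myosin light chain gene on the opposite strand, overlapped its exons by 719 bases. MYL6 held 1868 and 1677 counts, above those of SMARCC2 in both replicates. The sources do not say if strand was considered in counting, and 630 of the stretches of 50 bases in SMARCC2 also occurred in MYL6 in either orientation. The posterior SD, which describes how uncertain the sharing of reads was, came to 0.875% and 1.20% of the SMARCC2 count.

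SMARCD1 belongs to a family of 3 paralogs, SMARCD1, SMARCD2 and SMARCD3, which link the complex to transcription factors and nuclear receptors. SMARCD1 (ENSG00000066117, chr12:50478983-50494490, plus strand) was measured at 115 and 119 TPM, or 117 ± 2.71 TPM, from 1753 and 1661 counts. SMARCD2 was measured at 74.5 and 73.8 TPM and SMARCD3 at 33.4 and 29.9 TPM. The order SMARCD1, SMARCD2, SMARCD3 was thus the same in both replicates, with shares of 52.6% ± 1.26, 33.3% ± 0.178 and 14.2% ± 1.09. Of the SMARCD3 50-base stretches 10.7% also occurred in other genes, while SMARCD1 and SMARCD2 had none that did. The posterior SD came to 2.00% and 2.09% of the SMARCD3 count.

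SMARCB1 (INI1) is a core subunit of BAF and PBAF that contacts the nucleosome, has no paralog in the human genome, and is lost in malignant rhabdoid tumours. SMARCB1 (ENSG00000099956, chr22:24129118-24180196, plus strand) was measured at 179 and 172 TPM, or 176 ± 5.26 TPM, from 1908 and 1726 counts. Its TPM was the highest of the 10 subunits in both replicates, with an interval that overlapped that of SMARCC1, although SMARCC1, SMARCA4, ARID1A and PBRM1 had more counts in both replicates. The deposited interval of SMARCB1 was 159 to 178 TPM in replicate 1 and 151 to 171 TPM in replicate 2. In both it ended below the TPM of the same library. The interval belongs to the posterior mean TPM, and the cause of the distance was not tested. For the other 9 subunits the TPM lay inside the interval in both replicates.

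**Figure D2:**
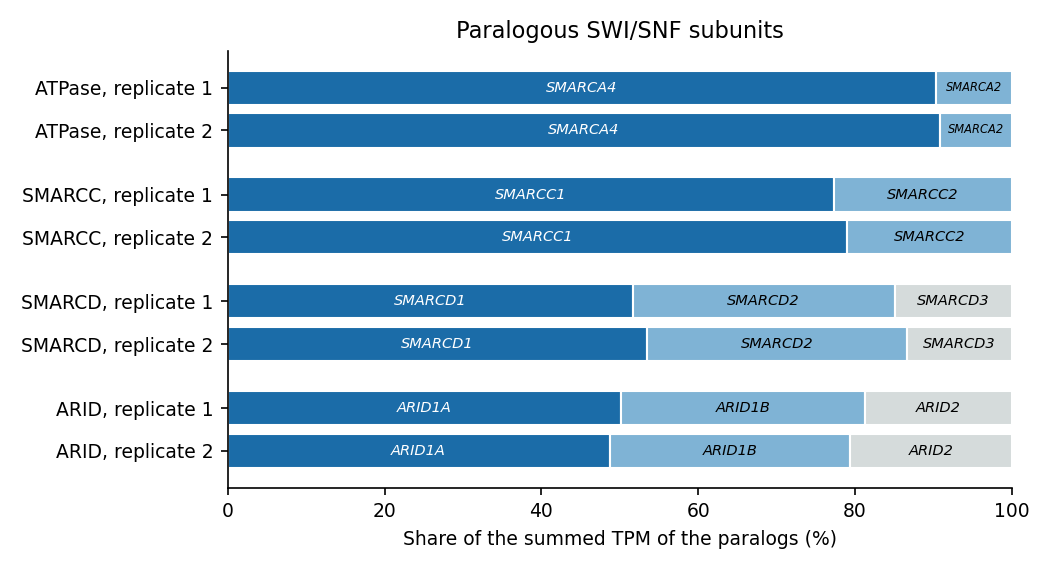
Share of the summed TPM (%) that each paralog provided, in replicate 1 and replicate 2, for the ATPases, the SMARCC and SMARCD families and the ARID subunits. SMARCA4 takes 90.3% and 90.9% of its bar and SMARCC1 77.3% and 79.0%, whereas SMARCD1 takes 51.7% and 53.5% and ARID1A 50.2% and 48.7%.

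ARID1A and ARID1B encode large DNA-binding subunits that exclude each other and define the canonical BAF form, and ARID1A is among the chromatin genes most often mutated in cancer. ARID1A (ENSG00000117713, chr1:27019727-27108595, plus strand) was measured at 54.6 and 50.2 TPM, or 52.4 ± 3.17 TPM, from 2902 and 2591 counts. ARID1B (ENSG00000049618, chr6:157097154-157531913, plus strand) was measured at 33.8 and 31.6 TPM, or 32.7 ± 1.53 TPM, from 1616 and 1552 counts. ARID1A was 1.62-fold and 1.59-fold above ARID1B, a much smaller distance than that between the ATPases, and provided 61.6% ± 0.326 of the summed TPM of the pair. Neither the TPM nor the deposited intervals of ARID1A and ARID1B overlapped in either replicate.

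The closest coding windows of the pair lie at chr1:27097652-27097701 in exon 12 of ARID1A and at chr6:157505407-157505456 in exon 13 of ARID1B, both on the plus strand, with mismatches in capitals.
ARID1A: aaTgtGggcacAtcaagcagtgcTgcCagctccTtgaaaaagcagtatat
ARID1B: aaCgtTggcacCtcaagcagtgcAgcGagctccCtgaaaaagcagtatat
They differed at 6 bases, and the longest identical run within single coding exons was 25 bases. Both genes overlapped the exons of a non-coding gene on the opposite strand, by 382 bases in ARID1A and by 747 bases in ARID1B, and these non-coding genes held between 6 and 10 counts in each library.

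ARID2 and PBRM1 define the PBAF form: ARID2 is its DNA-binding subunit, and PBRM1, a multi-bromodomain protein that reads acetylated histones, is frequently lost in clear cell kidney carcinoma. ARID2 (ENSG00000189079, chr12:46123489-46301823, plus strand) was measured at 20.4 and 21.2 TPM, or 20.8 ± 0.552 TPM, from 936 and 939 counts. PBRM1 (ENSG00000163939, chr3:52579368-52719933, minus strand) was measured at 60.6 and 62.2 TPM, or 61.4 ± 1.13 TPM, from 2155 and 2135 counts. The level of PBRM1 was thus well above that of its PBAF partner ARID2 in both libraries and close to that of ARID1A. Of the summed TPM of ARID1A, ARID1B and ARID2, the last provided 19.7% ± 1.29.

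In the order of the levels SMARCB1 came first, then SMARCC1, SMARCA4, SMARCD1, PBRM1, ARID1A, SMARCC2, ARID1B, ARID2 and SMARCA2. All 45 pairs of subunits had the same order in replicate 1 and replicate 2. In 40 of these pairs the deposited intervals did not overlap in either replicate. Of the 9 pairs of neighbours in the order, 4 were separate by this rule: SMARCC1 and SMARCA4, SMARCD1 and PBRM1, SMARCC2 and ARID1B, and ARID1B and ARID2. The neighbours SMARCB1 and SMARCC1, SMARCA4 and SMARCD1, PBRM1 and ARID1A, ARID1A and SMARCC2, and ARID2 and SMARCA2 overlapped in at least 1 replicate and are not ranked against each other. With the transcripts listed for each gene, the order therefore holds in steps. The core subunits SMARCB1, SMARCC1, SMARCA4 and SMARCD1 lay above 115 TPM, and the remaining 6 lay at 62.2 TPM or less.

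Summed over paralogs, the core modules differed less than their single genes. The ATPases SMARCA2 and SMARCA4 together came to 141.5 ± 0.778 TPM, the SMARCC pair to 207 ± 2.31 TPM and the SMARCD family to 223 ± 0.212 TPM. The SMARCC sum was 1.47 and 1.45 times that of the ATPases, and the SMARCD sum 1.57 and 1.58 times. The subunits that define the forms were lower: ARID1A and ARID1B summed to 85.1 ± 4.70 TPM, PBRM1 stood at 61.4 TPM, BRD9 at 28.1 ± 2.10 TPM, ARID2 at 20.8 TPM, and BICRA with BICRAL at 16.0 ± 0.537 TPM. For ARID1A and ARID1B the sum was 0.623 and 0.580 times that of the ATPases, and for ARID2 it was 0.144 and 0.150 times. These are levels of mRNA, from which the amounts of protein or of assembled complexes cannot be read.

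The 2 libraries were compared gene by gene with an exact binomial test, which takes counting error as its only error and compares these libraries and no conditions. Of the 10 subunits 0 differed at an adjusted p under 0.05 (Benjamini-Hochberg over 17920 genes), against 3.88% of all genes tested. At an unadjusted p under 0.05 the binomial test called 1 subunit, ARID1A, against 13.3% of all genes. By the exact negative binomial test of edgeR, which adds the dispersion estimated between the libraries, 0 subunits differed at an adjusted p (1.21% of all genes) and 0 at an unadjusted p (5.99% of all genes). That common dispersion came from the same 2 libraries, taken as replicates. The edgeR test is therefore not independent of the difference it tests, and can find only genes beyond the common spread of these libraries.

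ARID1A, with 54.6 TPM in replicate 1 and 50.2 TPM in replicate 2, was the subunit with the lowest p. Its log2 ratio of counts (replicate 2 over replicate 1) was -0.09, with p = 0.0288 by the exact binomial test and an adjusted p of 0.282. Over the 10 subunits the size of the log2 ratio of TPM had a median of 0.06 and reached 0.13, in SMARCC2. The median was 0.12 over the detected protein-coding genes and 0.11 over the 7215 of them within the TPM range of the subunits. For SMARCA4 the TPM were nearly identical, while its count was slightly lower in replicate 2 (log2 ratio -0.03) and its estimated mean transcript length was 5075 and 4885 nt.

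**Figure D3:**
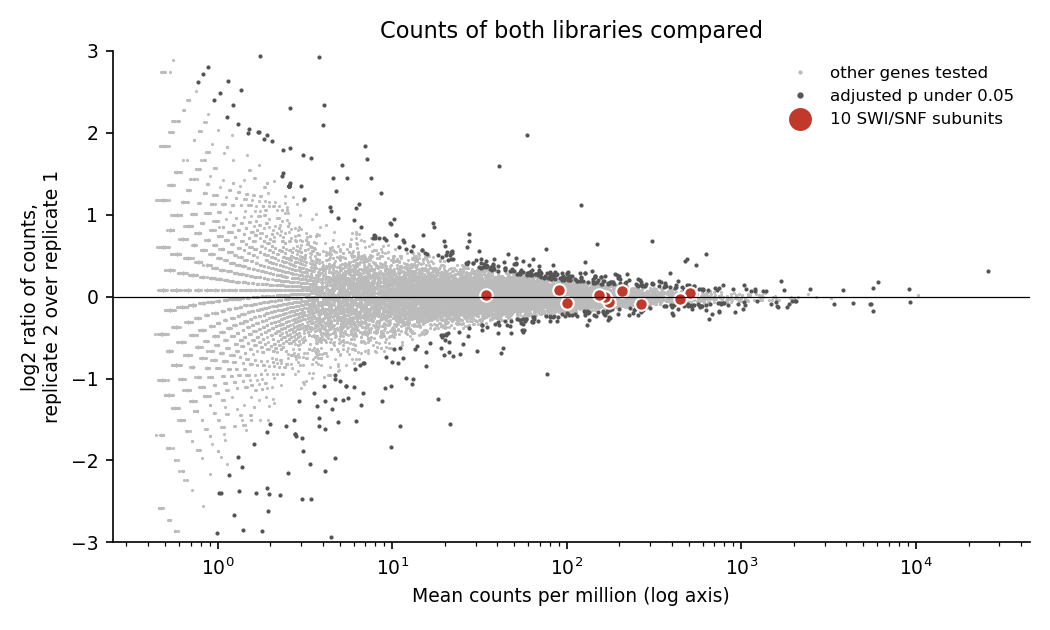
Log2 ratio of counts, replicate 2 over replicate 1, against the mean CPM (log axis) for the 17920 genes tested. Grey points did not pass an adjusted p of 0.05 by the exact binomial test, dark points did, red points are the 10 SWI/SNF subunits, and 138 genes lie outside the plotted range of 3 in either direction. The red points lie along the zero line, between -0.09 and 0.08.

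How far the values rest on reads that fit several genes differed among the subunits. The counts of SMARCA4, SMARCB1, SMARCC1, SMARCD1 and ARID1A were whole numbers (within 0.01) in both replicates, that is 5 of 10 subunits against 49.0% of the genes tested. Of the stretches of 50 bases in the transcripts compared, SMARCD1 and ARID2 shared none with other genes and SMARCC1 and SMARCA2 shared 0.0263% and 0.118%. The share was 0.525% for SMARCA4, 1.54% for SMARCB1, 1.56% for PBRM1, 3.24% for ARID1A and 3.60% for ARID1B. It was highest for SMARCC2, at 8.67%, most of it in the overlap with MYL6.

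PBRM1 also overlapped UQCC5, a mitochondrial assembly factor gene on the opposite strand, by 146 bases, and UQCC5 held 140 and 156 counts, far fewer than PBRM1. The subunit with the smallest count, SMARCA2, also had the widest interval relative to its level. Its posterior mean TPM, 17.2 and 16.2, lay above its TPM of 13.7 and 12.8. The estimated mean length of SMARCA2 transcripts was 3614 and 3832 nt, whereas its longest listed transcript has 5867 nt. Of the listed transcripts that GENCODE also holds, the longest of ARID1B has 10813 nt and that of SMARCB1 2153 nt. A gene's TPM depends on which transcripts its reads were assigned to. The canonical transcripts of SMARCB1 (5191 nt), ARID1B (10310 nt) and PBRM1 (7991 nt) were not among those listed. The estimated mean length of SMARCB1 transcripts was 1474 and 1446 nt, so its TPM and its place in the order rest on the shorter transcripts listed. Its level with the canonical transcript was not tested.

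The 10 genes lie on chromosomes 1, 3, 6, 9, 12, 19 and 22, with SMARCD1, SMARCC2 and ARID2 on chromosome 12 and SMARCC1 and PBRM1 on chromosome 3. Their genomic spans ran from 15.5 kb for SMARCD1 to 435 kb for ARID1B. Promoter windows of 300 bases around the start site (RefSeq, GRCh38.p14) were matched for 7 of the 10 genes, with 13 windows in all. Of these windows 9 had a ratio of observed over expected CpG dinucleotides of at least 0.6, as had 48.9% of all 35116 windows. The median ratio was 0.878 over the windows of the subunits and 0.579 over all windows.

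Of 21 further genes that encode SWI/SNF subunits, 20 were detected. The missing gene was ACTL6B, an actin-related subunit of neuronal complexes, with 0 and 2 counts, both at or under the limit that a count of 0 allows. Its paralog ACTL6A, which takes its place in dividing cells, held 432 and 406 counts. The TPM of ACTL6A were 65.6 and 41.6, a wider distance than its counts showed, and its estimated mean length was 932 and 1407 nt. ACTB, the actin that also serves as a subunit but is abundant in the cytoskeleton, was highest at 3305 and 3129 TPM, and SMARCE1, a core DNA-binding subunit, was at 128 and 126 TPM, next to SMARCA4. Of the 50-base stretches of SMARCE1 8.93% also occurred in other genes, and of those of ACTB 6.14%.

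**Figure D4:**
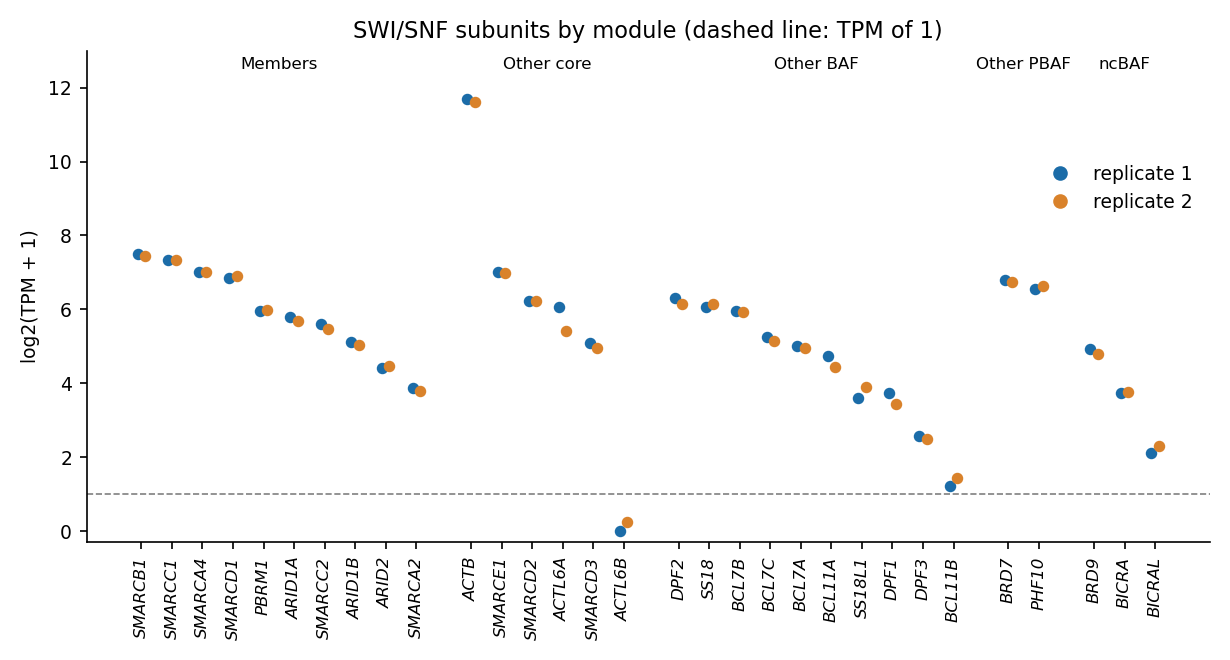
Level of all 31 SWI/SNF subunit genes as log2(TPM + 1) in replicate 1 (blue) and replicate 2 (orange), grouped into the 10 subunits described here and the other core, BAF, PBAF and ncBAF subunits. The dashed line marks a TPM of 1; ACTL6B is the only gene below it, and ACTB lies far above the rest.

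The accessory subunits of the PBAF form, BRD7 (110 and 106 TPM) and PHF10 (93.4 and 97.3 TPM), were above PBRM1 and ARID2. Of the 50-base stretches of BRD7 50.0% also occurred in other genes, and of those of PHF10 9.37%. The posterior SD was 0.312% and 0.367% of the BRD7 count and 0.404% and 0.450% of the PHF10 count. In the canonical form the PHD finger subunit DPF2 was at 78.3 and 69.3 TPM and provided 82.3% ± 0.608 of the sum with its paralogs DPF1 and DPF3. SS18, known from the fusion in synovial sarcoma, was at 66.5 and 69.5 TPM and provided 84.5% ± 1.75 of its sum with SS18L1. The paralogs typical of neuronal complexes (ACTL6B, DPF1, DPF3, SS18L1, SMARCD3) reached at most 33.4 TPM, with 4 of 5 detected, and all 4 progenitor counterparts (ACTL6A, PHF10, DPF2, SS18) lay between 41.6 and 97.3 TPM. Of the 20 further subunits tested 1, DPF2, differed between the libraries by the exact binomial test, against 3.88% of all genes tested. It had 1075 and 877 counts, an adjusted p of 0.0311 by that test and of 0.886 by the exact test of edgeR.

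Other families of chromatin remodellers were measured beside the SWI/SNF ATPases. Of 14 ATPase genes of the ISWI, CHD and INO80 families 13 were detected, and the median over all 14 was 46.5 TPM. SMARCA4 was above 12 of the 14, all but CHD4 of the NuRD complex (176 and 152 TPM) and SRCAP (136 and 128 TPM), and the order of SMARCA4 and SRCAP differed between the replicates. SMARCA2, at 13.7 and 12.8 TPM, was below the 13 that were detected, of which EP400 was the lowest at 21.5 and 21.8 TPM. CHD5, a largely neuronal gene, was not detected, with 0.26 and 0.55 TPM.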

How the data were processed

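Poly(A)+ RNA of both HEK293T replicates was sequenced with 50-nt reads on a HiSeq1500 after NEBNext Ultra II library preparation. Per the labels, the authors used Trimmomatic 0.36, STAR 2.6.1c and RSEM 1.3.1 with the hg19/GRCh37.p13 genome, while the study's methods name featureCounts with Ensembl release 87, and the columns are those of RSEM. Estimated counts were deposited by the authors with reads that fit several genes shared out. TPM values, deposited by the authors, are scaled by effective transcript length and library total. FPKM values were also made by the authors, per length and per sequenced reads. Transcript lengths, posterior SDs of counts and TPM interval bounds were deposited by the authors and treated as scores. A further deposited table holds pooled reads, and its values differed from the sum of the replicates by at most 1.6 counts for the subunits.

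Gene symbols and positions were taken from GENCODE release 44 in its GRCh37 version, which matched 96.1% of the identifiers. Depth was 10593491 and 10104118 estimated counts. A chi-square of the counts between the replicates had a median of 0.813 over 11883 well-counted genes, against 0.455 from counting error, so the libraries were not copies of each other. Levels were compared between genes as TPM, and neighbours in level were called separate where their deposited intervals did not overlap in either replicate. Counts, rounded to whole numbers, were compared between the libraries by a two-sided exact binomial test with TMM-scaled library sizes (edgeR 4.0.16, R 4.3.3, scipy 1.17.1) and Benjamini-Hochberg adjustment over all genes with 10 or more counts in both libraries together. For log2 ratios 0.5 was added to each count. The alternative was the exact negative binomial test of edgeR at the common dispersion of both libraries (biological coefficient of variation 0.0455). Both tests were tried on simulated counts with counting error only, in which 200 genes were changed 1.5-fold. The binomial test recovered 148 of them and called 7 unchanged genes, and the edgeR test recovered 140 and called 2. The real libraries varied more than counting error, so this simulation cannot show the error rates of the tests in these data. Stretches of 50 bases were compared on both strands over those transcripts listed in the deposited tables that GENCODE also holds. These were 17 of 20 for SMARCA4, 8 of 9 for ARID1A, 9 of 11 for ARID1B and all of those listed for the other 7 subunits, and the rest were not analysed here. The longest transcripts were taken from the same set, which held 10 of 11 for SMARCD2.

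The 10 subunits and all other lists were chosen with earlier results of these data known. Named genes were limited to the 10 subunits, the other SWI/SNF, remodeller and marker lists, and genes that overlap a subunit. Other detection thresholds, units, normalizations, count filters and leaving out each replicate were tried as alternatives. No columns of other samples were present.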

Additional observations from a re-analysis of the deposited data

How the results depend on the processing

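The 10 subunits were detected under each of 4 other thresholds and in each replicate alone (10 to 10), and the further subunits numbered 17 to 20. Leaving out a replicate gave shares of 90.3% to 90.9% for SMARCA4, 77.3% to 79.0% for SMARCC1, 51.7% to 53.5% for SMARCD1 and 61.3% to 61.8% for ARID1A, and a median of the subunits of 56.2 to 57.6 TPM. With posterior mean TPM the share was 88.6% for SMARCA4, 76.8% for SMARCC1 and 62.0% for ARID1A, and the median 55.6 TPM. With counts not divided by length the shares were 92.8%, 83.5%, 55.2% (SMARCD1) and 63.4% (ARID1A). A further alternative, chosen after seeing the data, was counts per length of the longest listed transcript that GENCODE also holds. With it they were 93.0%, 80.2%, 49.5% and 68.5%. The gene named was the highest of its family in each of these. Rescaled to the protein-coding genes the median was 81.7 TPM, against 30.5 TPM for the detected protein-coding genes, and in FPKM it was 40.25.

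Between the libraries 696 of 17920 genes differed, against 704 and 752 of 17920 under other normalizations. With no minimum summed count 564 of 30700 genes differed, and with a summed count of at least 100 it was 506 of 11885. By the exact test of edgeR 217 of 17920 differed. Among the genes with whole counts 71 of 8780 differed, and the cause of this lower share was not tested. Of the subunits 0 differed in any of these (5 were tested among the genes with whole counts and 10 in the others), with a lowest adjusted p of 0.0984 by the exact binomial test with RLE size factors. The log2 ratios of TPM of the subunits changed sign in 5 of 40 alternatives and never exceeded 0.14 in size. These alternatives did not include the TMM-scaled ratio of counts used in the binomial test. That ratio had another sign than the ratio of TPM for SMARCA2 (0.01 against -0.09) and ARID1B (0.02 against -0.09). By exact Poisson intervals of the counts, chosen after seeing the data, 7 of 9 neighbours were separate, against 4; SMARCB1 and SMARCC1, and SMARCA4 and SMARCD1, still overlapped. No paired analysis was possible because there was a single group.

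With a single group of 2 replicates, a ratio between subunits has no estimate of variation between cultures or conditions. SMARCA2 had the fewest counts, 365 and 349, and the exons of SMARCC2 overlap those of MYL6.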
